A study of Homo sapiens with 2 samples.

Results

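The miR-548 family was described in small RNA libraries from K562 cells, a human erythroleukaemia line. One library came from cells carrying a GFP lentivirus, the control, and 1 from cells carrying a lentivirus that overexpresses QKI5. QKI5 is the form of Quaking, a protein that binds and helps process RNA, that resides in the nucleus. Members were all entries named hsa-miR-548 followed by a letter or a hyphen, every arm and copy, which gave 70 of the 2218 mature miRNAs listed. No entry was chosen for its level. Both cultures grew in the same medium with serum, and transduction was the only treatment named. The level of QKI5 was not analysed here, and no label says whether the transduced cells were 1 clone or a pool.

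miRNAs are cut from hairpin transcripts, and each arm of a hairpin, 5p or 3p, can yield a mature miRNA. Bases 2 to 8 of the mature miRNA, the seed, do most of the pairing with target mRNAs. The miR-548 hairpins are found in primates, and many derive from Made1, a short palindromic DNA transposon whose folded copies make near-perfect hairpins. Copies have scattered over many chromosomes, so the members differ by a few bases and many share a host intron with a protein-coding gene. In GENCODE release 29 the members' names matched 68 hairpin genes on 21 chromosomes. Of these, 37 lay inside a gene on the same strand, 34 of them inside a protein-coding one. All 37 were intronic, and 0 overlapped an exon.

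RefSeq mature sequences (build GRCh38.p14) matched 45 of the 70 members by name. They were 19 to 23 bases long, and their median GC content was 35% against 52.2% over the 1946 listed miRNAs with a sequence. The 3p arms that carry the main contrasts are shown first, with the seed in capitals. The first 4 share nearly all bases and the last 4 are other members far apart in level or ratio.

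miR-548aq-3p: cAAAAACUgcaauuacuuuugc

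miR-548ah-3p: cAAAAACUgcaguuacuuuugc

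miR-548am-3p: cAAAAACUgcaguuacuuuugu

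miR-548o-3p: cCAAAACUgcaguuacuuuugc

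miR-548aj-3p: uAAAAACUgcaauuacuuuua

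miR-548x-3p: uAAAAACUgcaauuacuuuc

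miR-548c-3p: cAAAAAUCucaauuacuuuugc

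miR-548b-3p: cAAGAACCucaguugcuuuugu

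The next sequences show the 5p side, again with the seed in capitals. They are 3 names with 1 and the same mature sequence, followed by 2 members with the most common seed.

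miR-548aj-5p: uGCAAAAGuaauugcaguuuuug

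miR-548g-5p: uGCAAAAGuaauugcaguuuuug

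miR-548x-5p: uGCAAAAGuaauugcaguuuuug

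miR-548w: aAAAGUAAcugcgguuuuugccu

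miR-548aq-5p: gAAAGUAAuugcuguuuuugcc

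Values are RPM, reads per 1000000 reads of a library, and 1 read was worth 0.0430 RPM with GFP and 0.153 RPM with QKI5. The totals behind them were 23262340 reads for GFP and 6553945 for QKI5, a 3.55-fold gap in depth. With 1 library in each group no difference has a replicate check and no p-value for QKI5 is given. Intervals are exact 95% counting intervals. Counting error is all that they, and the limits set for a count of 0, cover, since reads were not tied to single molecules.

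The family as a whole was a minor part of the K562 miRNAs and was lower in the QKI5 library. Its 70 entries summed to 145.9 RPM (3395 reads) with GFP and 105 RPM (690 reads) with QKI5. The sum was thus 1.39-fold lower with QKI5 (95% counting interval 1.28 to 1.51). The members held 0.0220% of the listed miRNA reads in the GFP library (95% Wilson interval 0.0213% to 0.0228%) and 0.0177% in the QKI5 library (0.0164% to 0.0191%), and these intervals did not overlap. Fewer copies of a miRNA per cell and fewer cells with it cannot be told apart in such bulk libraries.

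This sum joined members that stood level with members that were well below their GFP value. miR-548t-3p, whose hairpin lies in an intron of GALNT7 on chromosome 4, was at 18.4 RPM with GFP and 22.7 RPM with QKI5. miR-548aa, which has 2 hairpin genes, was at 18.5 RPM with GFP and 18.3 RPM with QKI5. They were the most abundant members in the QKI5 library, and their sum was at a ratio of 1.11 (0.966 to 1.28). Neither had a matched sequence, so whether reads were counted under both names was not checked. Together these made up 25.3% of the family's reads with GFP (Wilson interval 23.9% to 26.8%) and 39.0% with QKI5 (35.4% to 42.7%). The other 68 entries summed to 109 RPM with GFP and 64.2 RPM with QKI5, 1.70-fold lower (1.53 to 1.89).

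**Figure D1:**
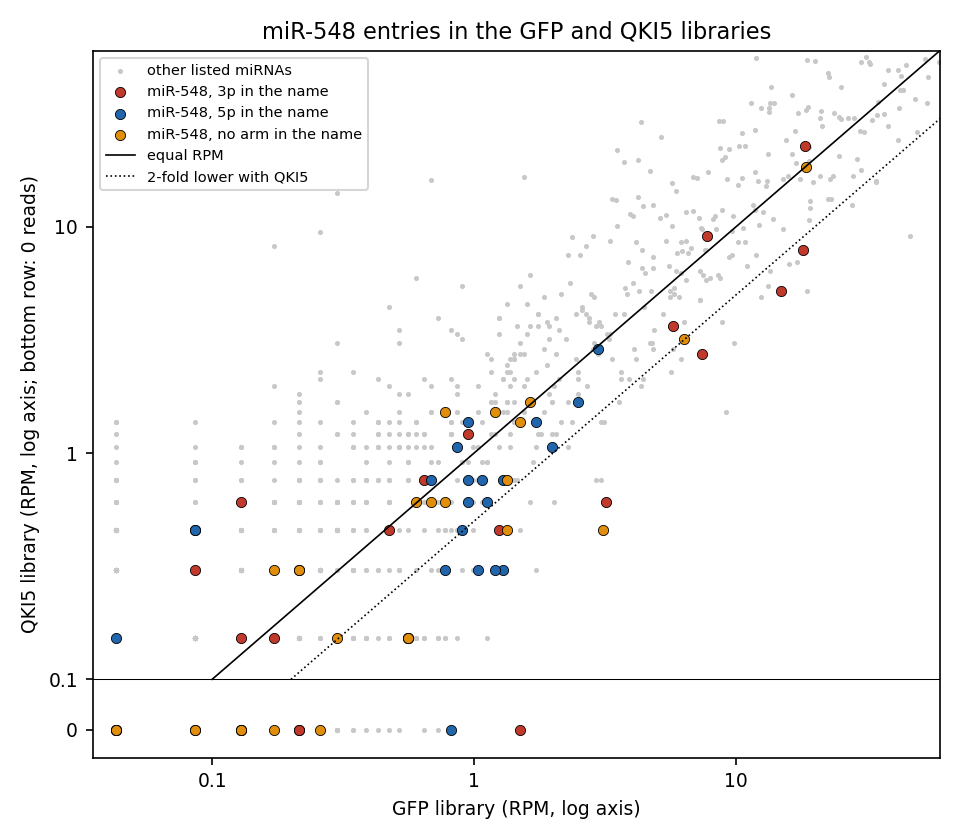
Level of each listed miRNA in the GFP library (x axis, RPM, log scale) and the QKI5 library (y axis, RPM, log scale, with 0 reads as a separate bottom row), with the miR-548 entries coloured by the arm in their name and the others in grey. miRNAs at 0 reads with GFP are not drawn, nor are those above 60 RPM. The miR-548 entries lie mostly on or under the line of equal RPM, 5 of them at least 2-fold lower with a mean of at least 1 RPM.

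For single members, a mean of the 2 libraries of at least 1 RPM was required, which 22 of the 70 met and 48 did not. Log2 ratios, QKI5 over GFP, were taken on log2(RPM + 0.153), a scale that understates ratios of low values. Of the 22 members, 5 were at least 2-fold lower with QKI5, against 7.45% of all 604 miRNAs above that level, and 0 were at least 2-fold higher, against 21.2%. A further 17 lay within 2-fold. The members' median log2 ratio was -0.41 and that of the 604 was 0.24. Among 307 other miRNAs in the same range of mean level (1.03 to 20.6 RPM), the median was 0.39. Of these, 6.84% were lower by 2-fold or more and 26.7% higher. Log2 ratios below 0 were seen for 15 of the 22 members (68.2%) and for 39.9% of the 604. An exact binomial test of the reads, adjusted over all 1995 detected miRNAs, compares these 2 libraries and not the conditions. At an adjusted p of 0.05 it called 7 of the 69 detected members lower, against 6.82% of all, and 0 higher, against 14.5%.

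The 3p member miR-548b-3p, from an intron of FAM184A on chromosome 6, was at 18.0 RPM with GFP (418 reads) and 7.93 RPM with QKI5 (52 reads), 2.26-fold lower (1.69 to 3.08). In the GFP library it stood level with miR-548t-3p and miR-548aa, and in the QKI5 library it was well under both. miR-548c-3p, from an intron of RASSF3 on chromosome 12, was at 14.8 RPM with GFP (345 reads) and 5.19 RPM with QKI5 (34 reads), 2.86-fold lower (2.01 to 4.20). miR-548d-3p was at 7.44 RPM (173 reads) and 2.75 RPM (18 reads), 2.71-fold lower (1.66 to 4.68). All 3 are 3p entries, and their intervals lay wholly on the lower side.

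The lowest ratios above 1 RPM were those of 2 members that reached this mean only through the GFP library, so they could pass only by being high there. miR-548ae, with hairpin genes on chromosomes 2 and 5, had 72 reads with GFP and 3 with QKI5, or 3.10 RPM and 0.458 RPM, and was 6.76-fold lower (2.22 to 33.6). miR-548aq-3p, from an intron of IGF2BP2 on chromosome 3, had 74 and 4 reads, or 3.18 RPM and 0.610 RPM, and was 5.21-fold lower (1.95 to 19.6). Both rest on a handful of QKI5 reads, so their intervals are wide. At a mean of at least 2 RPM neither was kept, and 3 of 10 members were 2-fold lower, against 7.52% of all miRNAs at that level. Of the 5 lower members, miR-548c-3p and miR-548ae had intervals entirely past 2-fold.

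miR-548z and miR-548h-3p came next among the abundant members. miR-548z, at 6.36 RPM with GFP and 3.20 RPM with QKI5, was 1.99-fold lower (1.25 to 3.30), just short of the threshold. miR-548h-3p, which has 5 hairpin genes, was at 5.76 RPM and 3.66 RPM, 1.57-fold lower (1.01 to 2.54). The 5p entries miR-548d-5p (2.97 RPM with GFP, 2.90 RPM with QKI5) and miR-548c-5p (2.49 and 1.68 RPM) had intervals that held a ratio of 1.

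**Figure D2:**
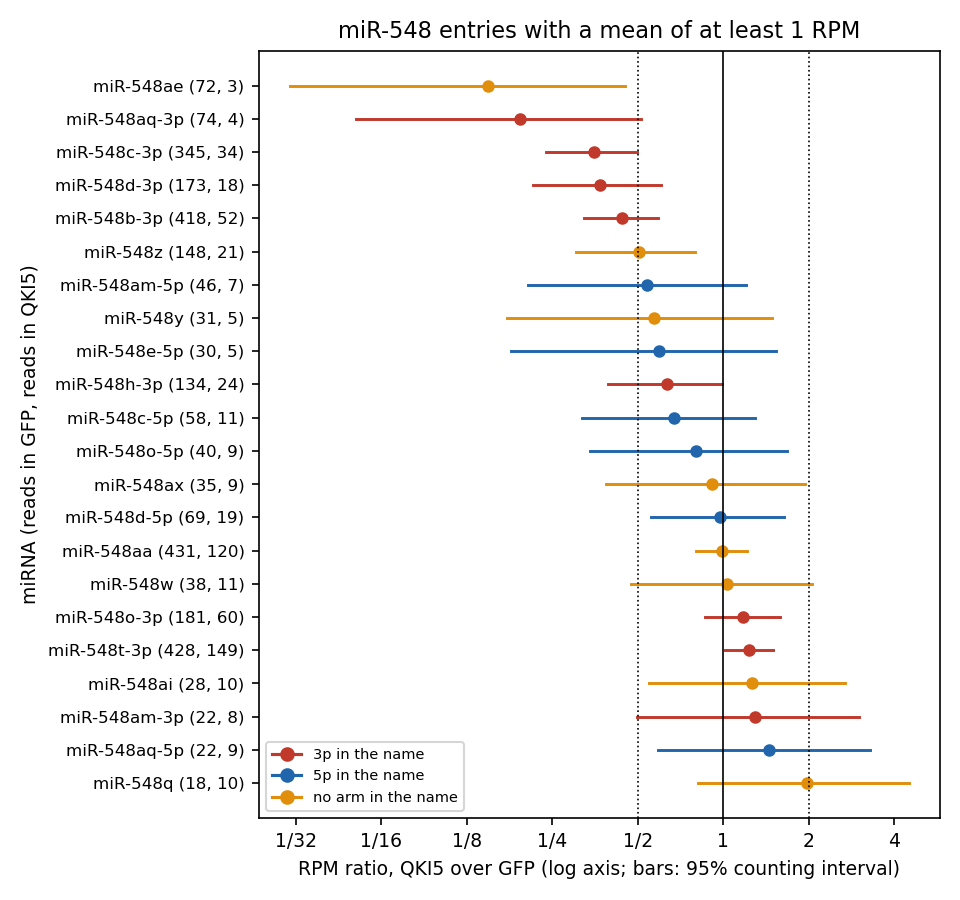
RPM ratio of QKI5 over GFP (x axis, log scale) for the 22 miR-548 entries with a mean of at least 1 RPM (y axis, with the reads in GFP and QKI5 in brackets). Points are ratios, bars exact 95% counting intervals, dotted lines 2-fold. The bars of 7 entries lie wholly left of 1 and that of miR-548t-3p lies wholly right of it.

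No member stood 2-fold higher above that level. The highest ratio was that of miR-548q, a member on chromosome 10, with 18 reads with GFP and 10 with QKI5, or 0.774 RPM and 1.53 RPM, a ratio of 1.97 (0.813 to 4.51). miR-548aq-5p was at a ratio of 1.45 (0.589 to 3.28), miR-548am-3p at 1.29 (0.497 to 3.01) and miR-548ai at 1.27 (0.549 to 2.69). All 4 intervals held 1. Of these, miR-548q, miR-548aq-5p and miR-548am-3p reached a mean of 1 RPM only through the QKI5 library, so they could pass only by being high there. miR-548t-3p, at a ratio of 1.24 (1.02 to 1.49), was the 1 member whose interval lay wholly above 1, against 41.2% of the 604 miRNAs, though its log2 ratio of 0.30 turned to -0.33 when the columns were scaled by a trimmed mean. Intervals wholly below 1 were found for 7 members (31.8%), against 25.2%, a share not far from the background. miR-548o-3p, with hairpin genes on chromosomes 7 and 20, was at 7.78 RPM with GFP and 9.15 RPM with QKI5, a ratio of 1.18 (0.864 to 1.58), and its log2 ratio of 0.23 turned to -0.39 on the trimmed mean scale.

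The arms showed no common order. Of 22 names listed with both arms, 11 had the lower log2 ratio on the 3p arm, and 5 had both arms at a mean of at least 1 RPM. For miR-548aq the 5p arm had 22 reads with GFP and 9 with QKI5 while the 3p arm had 74 and 4, so the log2 ratios were 0.47 and -2.13, and the counting intervals of the ratios did not overlap (0.589 to 3.28 and 0.0509 to 0.512). Its 5p arm reached a mean of 1 RPM only through the QKI5 library and its 3p arm only through the GFP library. The level filter thus favoured such a contrast, which cannot count as support for a difference between the arms. For miR-548d they were -0.03 on the 5p and -1.39 on the 3p arm, and for miR-548c -0.53 and -1.49. In miR-548am and miR-548o the order was the opposite, with -0.80 and -0.30 on the 5p and 0.32 and 0.23 on the 3p arm. The intervals of the arms overlapped in these 4 names. None of their 5p arms had a matched sequence, so whether these arms share reads was not checked. Over the whole family the entries named 3p summed to 82.1 RPM with GFP and 56.6 RPM with QKI5, a ratio of 0.689 (0.615 to 0.771). Those named 5p summed to 23.4 and 16.5 RPM, a ratio of 0.705 (0.568 to 0.868). Entries with no arm in the name had a ratio of 0.796 (0.682 to 0.925). The 3p entries held 56.3% of the family's reads with GFP (Wilson interval 54.6% to 57.9%) and 53.8% with QKI5 (50.04% to 57.5%), so the share of the 3p arms was not separated between the libraries.

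**Figure D3:**
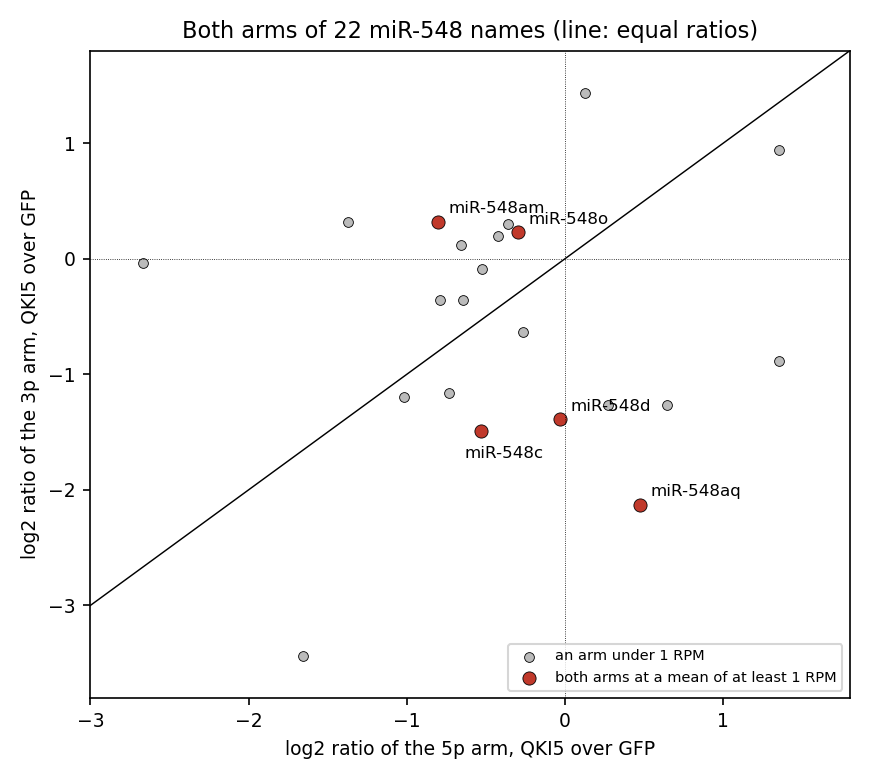
Log2 ratio of QKI5 over GFP on the 3p arm (y axis) against that on the 5p arm (x axis) for 22 miR-548 names listed with both arms, each point 1 name, red where both arms have a mean of at least 1 RPM and grey otherwise. Points lie on either side of the line of equal ratios, with miR-548aq, miR-548d and miR-548c under it and miR-548am and miR-548o above it.

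Reads of hairpins that overlap on opposite strands cannot be told apart without strand, and no source used here says whether counting used it. GENCODE places 3 such pairs among the members' hairpin genes, between miR-548c and miR-548z on chromosome 12 and between both copies of miR-548aa and miR-548d. miR-548c-3p and miR-548z were both lower with QKI5. miR-548aa and miR-548d-3p went apart, at ratios of 0.988 (0.8004 to 1.21) and 0.369 (0.214 to 0.601), with intervals that did not overlap.

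Among the 45 members with a sequence there were 26 different seeds. Of these, 6 were carried by 2 or more members, 25 members in all, and 20 members had a seed of their own. The seed AAAGUAA, the most common, joined 9 members led by miR-548w, which summed to 8.25 RPM with GFP and 6.10 RPM with QKI5, a ratio of 0.739 (0.512 to 1.04). miR-548w itself was at a ratio of 1.03 (0.474 to 2.05). The seed AAAAACU joined 6 members led by miR-548aq-3p, which summed to 7.91 and 2.90 RPM, 2.73-fold lower (1.70 to 4.64). GCAAAAG joined 4 members led by miR-548aj-5p, at 4.0 and 1.37 RPM, 2.91-fold lower (1.47 to 6.57). Of these 4, 3 have 1 mature sequence, and reads counted under more than 1 name would make this interval too narrow. The seed AAGGUAA of miR-548ai and miR-548ag had a ratio of 1.22 (0.532 to 2.58). The seeds AAAACCG, led by miR-548ay-3p, and AAAACUG, led by miR-548ar-3p, had at most 8 reads in a library and their intervals, 0.391 to 6.62 and 0.0150 to 6.34, set no direction.

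Within the seed AAAAACU, 5 of 6 members had a ratio below 1, as did all 4 of GCAAAAG, of which 3 have the same mature sequence and are not separate cases. The members closest in sequence were compared base by base. Counting positions from 1 at the 5′ end, miR-548ah-3p and miR-548aq-3p differed by G12A, miR-548ah-3p and miR-548am-3p by C22U, and miR-548ah-3p and miR-548o-3p by A2C, which lies in the seed. miR-548ah-3p had 13 reads with GFP and 1 with QKI5, and miR-548aq-3p 74 and 4. miR-548am-3p had 22 and 8 reads and miR-548o-3p 181 and 60. Between them miR-548am-3p and miR-548aq-3p, with 1 seed and differences of G12A and U22C, had log2 ratios of 0.32 and -2.13, with ratio intervals that just overlapped (0.497 to 3.01 and 0.0509 to 0.512).

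Among the 45 members with a sequence, the A or G at this place, read within a heptamer, marked a wider split. It was chosen after its values were seen and is a description with no test. The 25 members without a sequence were not searched. They include miR-548t-3p, miR-548aa, miR-548d-3p, miR-548z, miR-548h-3p and miR-548ae, so whether the split holds for the whole family is not known. The letters CAAUUAC occur in 6 of the 45, namely miR-548c-3p, miR-548aq-3p, miR-548aj-3p, miR-548x-3p, miR-548u and miR-548ac. These summed to 503 reads with GFP and 43 with QKI5, or 21.6 RPM and 6.56 RPM, 3.30-fold lower (2.41 to 4.61), and all 6 had a ratio below 1. Without miR-548c-3p, which holds most of these reads, the other 5 had 158 and 9 reads, 4.95-fold lower (2.54 to 11.0). The letters CAGUUAC occur in 5 of the 45, namely miR-548o-3p, miR-548p, miR-548am-3p, miR-548ah-3p and miR-548au-3p. These had 236 and 75 reads, or 10.1 RPM and 11.4 RPM, a ratio of 1.13 (0.858 to 1.47), and 2 of the 5 had a ratio below 1. Without miR-548o-3p the ratio was 0.968 (0.508 to 1.74). Each heptamer was searched on the mature strand only and is found in 0.422% of 2370 mature sequences. The strings GUAAUUGC, GUAAUUGU and GUAACUGC were searched too. GUAAUUGC occurs in 9 members, at a summed ratio of 0.625 (0.421 to 0.904), and 6 of the 9 had a ratio below 1. GUAAUUGU occurs in 4 members, at 0.565 (0.215 to 1.26), and GUAACUGC in miR-548w alone, at 1.03 (0.474 to 2.05). Outside the family, listed miRNAs with a sequence were searched. There CAAUUAC occurs in miR-570-3p, at a ratio of 0.689 (0.567 to 0.832), and in miR-4275, with 1 read in each library. CAGUUAC occurs in miR-340-3p, at 0.798 (0.643 to 0.984), miR-370-5p, at 0.868 (0.574 to 1.28), and miR-935, at 6.19 (4.69 to 8.22). miR-548b-3p, which has neither heptamer, was lower as well, so the letters do not sort all members, nor the miRNAs outside the family.

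**Figure D4:**
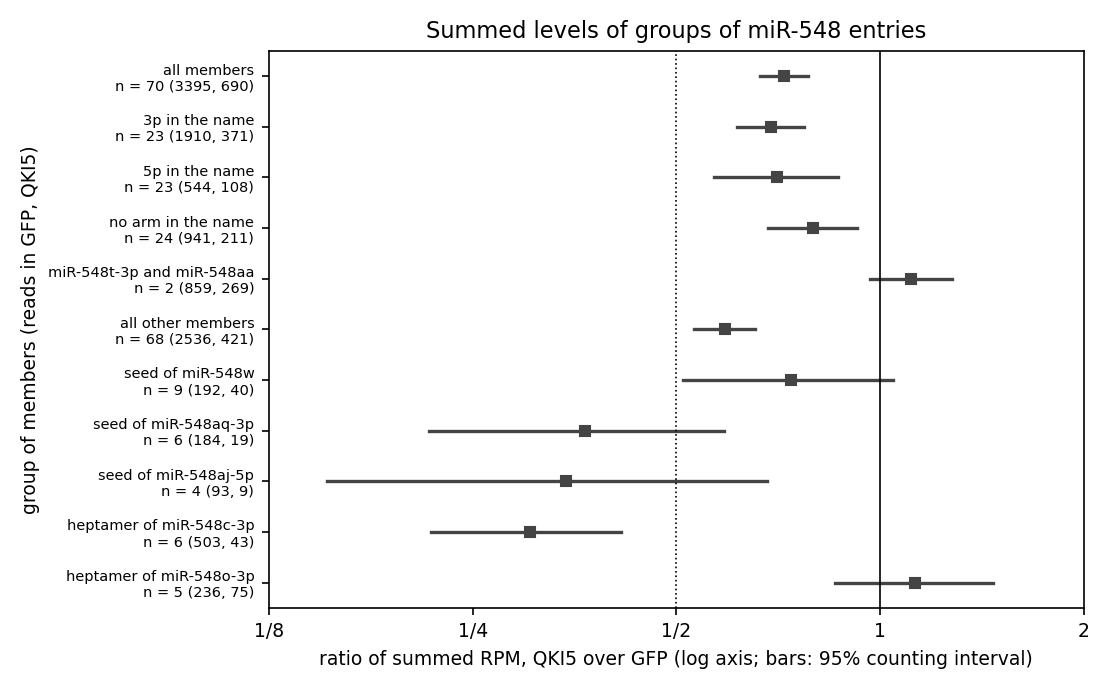
Ratio of summed RPM, QKI5 over GFP (x axis, log scale), for groups of miR-548 entries (y axis, with the number of entries and the reads in GFP and QKI5), with exact 95% counting intervals as bars. The heptamers are those described in the text and were searched only in members with a matched sequence. The heptamer group of miR-548c-3p, at 43 QKI5 reads, lies wholly under a ratio of 0.5, and that of miR-548o-3p spans 1.

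Reads that fit several members limit how far single names can be read. The 25 members without a matched sequence, miR-548t-3p and miR-548aa among them, could not be checked for such reads. miR-548aj-5p, miR-548g-5p and miR-548x-5p have 1 mature sequence, yet had 30, 24 and 18 reads with GFP, and 2 each with QKI5. The counts were thus unequal with GFP and equal with QKI5, and no source used here gives the rule by which such reads were assigned. A sum of them takes each read as counted under 1 name only, which was not checked. Summed so, these 3 names were at 3.10 RPM with GFP and 0.915 RPM with QKI5, 3.38-fold lower (1.48 to 9.52). Each had a mean under 1 RPM and so was not among the 22, although their sum, taken so, would have been. Reads counted under more than 1 name would make the sum too high and its interval too narrow.

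Zeros were read with the depth in mind. Of the 70 members, 69 had a read with GFP and 54 with QKI5, 15 were at 0 only with QKI5, 0 only with GFP, and miR-548ad was at 0 in both. At the QKI5 depth the GFP reads would leave 59.1 members with a read, a number computed from the counts, against the 54 seen. Over all listed miRNAs the order was the opposite, with 1275 expected from the thinned GFP reads and 1448 seen in the QKI5 library. For 13 of the 15 zeros the GFP level would match fewer than 3 QKI5 reads, so a difference was not detectable at this depth. The other 2 were miR-548aj-3p, with 35 GFP reads where 9.86 QKI5 reads would match its GFP level, and miR-548j-5p, with 19 where 5.35 would match. Among the 13, the most GFP reads were those of miR-548aw, from an intron of the erythroid and megakaryocyte transcription factor gene GFI1B on chromosome 9, with 6 GFP reads, where 1.69 would match. A count of 0 allows up to 3 reads, or 0.458 RPM, in the QKI5 library. The 48 members under 1 RPM summed to 23.8 RPM with GFP and 14.0 RPM with QKI5, 1.70-fold lower (1.36 to 2.14).

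Of miR-570 and miR-579, whose hairpins resemble the family's, 3 of 4 arms had a log2 ratio below 0. miR-570-3p was at 29.02 RPM with GFP and 19.99 RPM with QKI5, a ratio of 0.689 (0.567 to 0.832). miR-579-3p was at 8.86 and 3.81 RPM, 2.32-fold lower, with a ratio of 0.431 (0.272 to 0.654). miR-579-5p had a ratio of 0.622 (0.348 to 1.05) and miR-570-5p, which has the seed of miR-548ai, 1.06 (0.486 to 2.11). Thus 1 of these 4 was 2-fold lower and 0 were 2-fold higher, while miR-603 was searched for and had no entry among the listed miRNAs. miR-559, which has the most common miR-548 seed, had 1 read with GFP and 0 with QKI5. Of 5 miRNAs above 1 RPM that derive from another repeat, LINE2, 3 are miR-151 entries. Of the 5, 2 were at least 2-fold higher, against 21.2% of the 604, and 0 were lower, against 7.45%, with a median log2 ratio of 0.83. These counts are too small to set the LINE2 entries apart from that background.

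Base composition moved with the ratios. Across the 535 miRNAs above 1 RPM with a sequence, GC content and log2 ratio had a Spearman's rho of 0.306, given as a description across miRNAs of the same 2 libraries. The 63 other miRNAs with at most 35% GC, the members' median, had a median log2 ratio of -0.19, with 19.0% lower by 2-fold or more and 9.52% higher. The 461 above it had a median of 0.33, with 5.42% lower and 23.4% higher. The 11 members above 1 RPM with a sequence had a median log2 ratio of 0.04, against -0.41 for all 22, so the members with a known GC content do not stand for the rest. A GC correction of the members' counts was void, because 11 of the 22 members above 1 RPM had one, under the 80% such a check needs. The part of base composition in the members' lower levels was not tested.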

How the data were processed

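Small RNA from K562 cells was isolated with a miRNA kit and read on an Ion Proton, per the labels' protocols, with 1 library for GFP and 1 for QKI5. Bowtie 0.12.3 and hg19 are named in the submitters' processing notes. No source used here gives the miRNA annotation or the handling of reads with several matches. The values the authors deposited are RPM, although the table is named for RPKM: in each column 100.0% of values above 0 were whole multiples of 1 step, within 0.1 of a read, so reads were recovered. Ratios used exact conditional binomial intervals, and log2 ratios a pseudocount of 0.153 RPM. Sequences came from RefSeq, and hosts from GENCODE 29 on GRCh38, whose positions were not used because the build differs from hg19.

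The members and lists were chosen with earlier results of these data known. The text names the 12 members of highest mean, the 6 highest and 6 lowest log2 ratios above 1 RPM, the 3 with most reads among those at 0 in 1 library, the leading member of each shared seed, and the 4 pairs of like sequence with most reads. Others were added after their values were seen. The design had not fixed a unit, and no test of the treatment was possible. Python 3.11.15 was used with pandas 2.3.3, numpy 2.4.6, scipy 1.17.1 and matplotlib 3.10.9, and the code was tested on simulated data. Alternatives covered scaling, pseudocount, level, fold and repeated sequences. A binomial test of recovered reads (exact), adjusted over 1995 detected miRNAs, was added after seeing the data.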

Additional observations from a re-analysis of the deposited data

How the results depend on the processing

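The family's lower level was kept in direction under every scaling tried, while its size was not. The ratio of the summed family, 0.721 as deposited, was 0.804 when each library was scaled to its listed miRNA reads, 0.464 under a trimmed mean and 0.556 under quantile normalization. It was 0.647 without miR-548t-3p and 0.589 without miR-548t-3p and miR-548aa. The count of members at least 2-fold lower, 5 as deposited, was 9 of 17 under the trimmed mean, 9 of 22 under quantile normalization, 12 of 40 with a mean of at least 0.5 RPM (8.14% of all miRNAs were), 3 of 10 with a mean of at least 2 RPM (7.52%), 20 of 69 with no level filter (7.27%) and 10 of 22 at 1.5-fold. The background share moved, to 24.7% lower and 7.07% higher under the trimmed mean, 13.9% and 13.6% under quantile normalization and 18.4% and 35.6% at 1.5-fold. The count of members at least 2-fold higher, 0 as deposited, was 3 with no level filter (17.4% of all were) and 1 at 1.5-fold. The members' median log2 ratio was -0.15 when scaled to the listed miRNA reads, -1.10 under the trimmed mean, -0.78 under quantile normalization, -0.29 with a pseudocount of 1 RPM and -0.58 with a mean of at least 2 RPM. These scalings moved the median of all miRNAs above 1 RPM by 0.15, -0.62 and -0.25, and leaving out the 10 most abundant miRNAs by -0.11. Relative to the median of all miRNAs in the same setting, the members' median lay lower by 0.51 (pseudocount of 1 RPM) to 0.83 (mean of at least 0.5 RPM). The share of 3p arms without miR-548t-3p was 49.9% with GFP and 41.0% with QKI5. The seed AAAGUAA had a ratio of 0.475 under the trimmed mean. Of the 5 lower members, each stayed at least 2-fold lower in all 6 settings of scaling and pseudocount. The binomial test of reads, which compares these libraries and not the conditions, called 7 members lower (6.82% of 1995 miRNAs were) and 0 higher (14.5%). Those 7 were the 5 lower members with miR-548z and miR-548aj-3p. The GC correction was not run. No paired analysis was possible because each group has 1 library.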

Other observations

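QKI proteins are known to bind RNA at sites with the core ACUAA. That pentamer, searched on the mature strand, was found in 0 of the 45 member sequences and in 14 of 2370 mature sequences (0.591%). The search covered the mature miRNAs and not their hairpins or host transcripts.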
